A study of Mus musculus with 12 samples.

Results

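The 10 genes described here encode the machinery with which antigen-presenting cells load and display peptides on MHC class II: the peptide-binding chains H2-Aa, H2-Ab1 and H2-Eb1, the invariant chain Cd74, the peptide editor chains H2-DMa, H2-DMb1 and H2-DMb2, the editor's inhibitor chains H2-Oa and H2-Ob, and the transactivator Ciita. They were taken by symbol from a table of 55401 gene identifiers, and all 10 were among the 18274 genes tested, which reached 10 normalized counts in 3 or more libraries. Living CD45+ CD11c+ cells had been sorted from B16-OVA tumours, a mouse melanoma line that carries the ovalbumin gene. The tumours had grown in mice labelled WT for 10 days when treatment began. The 4 groups of 3 libraries were combined (20 Gy of radiation and a fusion protein), fusion protein alone, 20 Gy alone and untreated. Radiation was given on day 10, the fusion protein at 20 mcg on day 10 and at 10 mcg on day 14, and the cells were taken on day 17. No source used here gives the make-up of the fusion protein, the strain of the mice or the number of animals per library. Since no label says that libraries of a group came from separate mice, p-values measure the spread between these libraries, which may be partly technical.

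An MHC class II molecule is a pair of an alpha and a beta chain that assembles in the endoplasmic reticulum around the invariant chain, which fills the groove and guides the complex to endosomes. Proteases there cut the invariant chain down to a small fragment, H2-DM exchanges that fragment for peptides of ingested protein, and the loaded molecule shows them to CD4 T cells. H2-O restrains H2-DM, above all in B cells. Dendritic cells and B cells carry class II constantly, while many macrophages and monocytes gain it under interferon gamma, in each case through Ciita, which binds no DNA itself and acts through factors bound to the X and Y boxes of class II promoters.

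Genes of class II display were lower in the libraries that had received the fusion protein, with or without 20 Gy. H2-Ab1, the I-A beta chain, fell to 0.453-fold (log2 fold change −1.14 ± 0.25, SE), H2-Eb1, the I-E beta chain, to 0.478-fold (−1.07 ± 0.24) and Cd74 to 0.494-fold (−1.02 ± 0.24) in both groups with the fusion protein against both groups without it (6 against 6 libraries). Their adjusted p-values were 0.0326, 0.0373 and 0.0429 (limma, Benjamini-Hochberg over all tested genes, called at 0.05). The other 7 members also had estimates below 0, from −1.03 to −0.65, and did not pass. No member passed in any comparison of 20 Gy.

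These are levels in a mixed sorted population, in which fewer cells of a type and less RNA per cell cannot be told apart. The libraries held 14462032 to 23985496 reads in genes. The CD11c gene Itgax was present in every library at 2226 to 9497 normalized counts, the dendritic cell factor Zbtb46 at 418 to 1567 and the dendritic cell cytokine receptor Flt3 at 243 to 3690. Markers of other cells were present too. The summed level of 10 B cell genes was lowest in library 3 of the fusion protein (604), the 20 Gy (700.2) and the untreated group (964), against 4189 to 24787 in the other 9 libraries. The summed level of 6 melanoma genes was 1233 to 15154 in the 4 libraries numbered 3 and 94.9 to 415 in the other 8. No marker of either list was at 0 in all 3 libraries of a group.

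Of the members, 8 lie in the MHC region of chromosome 17, and Ciita and Cd74 lie elsewhere. On the build GRCm38, with GENCODE positions, H2-Oa spans 34092340 to 34095234, H2-DMa 34119541 to 34139101, H2-DMb2 34143307 to 34151555, H2-DMb1 34153072 to 34160230, H2-Ob 34238903 to 34254414, H2-Ab1 34257689 to 34269419 and H2-Eb1 34305867 to 34316674 on the plus strand of chromosome 17. H2-Aa spans 34282744 to 34287823 on its minus strand. Ciita lies on chromosome 16 at 10480059 to 10528418 (plus strand). H2-DMb1 and H2-DMb2 share 179 stretches of 100 bases, 11.3% of those of H2-DMb1 and 10.3% of those of H2-DMb2, so reads may have been split between them. H2-Eb1 and its neighbour H2-Eb2 share 0 such stretches. H2-Eb1, H2-DMa and H2-Oa overlap annotated antisense genes, H2-DMa also overlaps Brd2 and Ciita overlaps Dexi on the opposite strand, and no source used here gives the strand setting of the counting.

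Promoters of class II genes are shown because their X and Y boxes are where Ciita acts and because most members moved together across libraries. RefSeq promoters (GRCm38.p6, 250 bases before to 50 after the start) were held for 7 of the 10 members, all but H2-Ab1, Cd74 and Ciita. The Y box core was searched as TGATTGG and the X box core as AACNNATGA on both strands. The motifs can overlap by the letters TGA, did so in no member, and were chosen after these sequences had been seen. Of 32851 mouse promoters, 7.82% held the Y box letters and 2.85% the X box letters. An X box core followed by a Y box core within 60 bases on the gene's own strand was found in 10 promoters (0.0304%), 4 of them those of H2-Eb1, H2-DMb1, H2-DMb2 and H2-Ob. In the windows of 80 bases below, written 5′ to 3′ on the gene's strand, capitals mark the matched letters.
H2-Eb1, chr17:34305756-34305835, plus strand: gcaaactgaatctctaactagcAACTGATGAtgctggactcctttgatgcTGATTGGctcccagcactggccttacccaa
H2-DMb2, chr17:34145107-34145186, plus strand: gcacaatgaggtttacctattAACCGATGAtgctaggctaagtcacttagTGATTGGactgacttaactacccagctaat
H2-Ob, chr17:34238796-34238875, plus strand: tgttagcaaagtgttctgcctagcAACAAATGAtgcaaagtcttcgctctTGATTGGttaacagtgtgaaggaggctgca
H2-Aa, chr17:34287844-34287923, minus strand: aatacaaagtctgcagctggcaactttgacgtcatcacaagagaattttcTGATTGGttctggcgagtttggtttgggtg

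The Y box core began 50 bases before the RefSeq start in H2-Aa, 61 in H2-Eb1, 63 in H2-DMb1, 92 in H2-DMb2, 45 in H2-Oa and 59 in H2-Ob. All 80 bases of the H2-DMb1 window, with both cores, lay in an exon of that gene annotated by GENCODE. In H2-Oa 24 bases of the window did, and neither window is printed. Between the X and the Y letters lay 19 bases in H2-Eb1, 20 in H2-DMb1 and H2-DMb2 and 17 in H2-Ob. The H2-Aa and H2-Oa windows held the Y letters without the X letters searched, and both H2-DMa windows held neither. A match describes these letters and no more. Of the other members that hold both cores, H2-DMb1 had a Pearson's r of 0.923 with H2-Eb1 over the 12 libraries, H2-DMb2 of 0.62 and H2-Ob of 0.634.

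Levels per kilobase of exon put Cd74 first, at a mean of 36462 normalized counts per kilobase over the 12 libraries, followed by H2-Ab1 at 10980.0, H2-Eb1 at 7117 and H2-Aa at 4891. Each of these was above the next in 12 of 12 libraries. H2-DMb1 at 853 and H2-DMb2 at 851 could not be ordered, H2-DMb1 being above in 7 of 12 libraries. Ciita at 462 and H2-DMa at 426 could not be ordered either (6 of 12), and H2-DMa was above H2-Oa, at 348, in 8 of 12. H2-Ob was lowest at 231, below H2-Oa in 12 of 12 libraries. The length used was that of all annotated exons of a gene merged, so this order depends on the annotation. It was 3798 bases for H2-Aa, 1944 for H2-Eb1, 5380 for H2-Ob and 1407 for H2-Oa. Without division by length, the mean of H2-Aa was above that of H2-Eb1 (18576 against 13835 normalized counts). That of H2-Ob was above that of H2-Oa (1244 against 489). The spread of a member over libraries ranged from 4.08-fold for H2-DMa to 52.3-fold for H2-Ob.

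**Figure D1:**
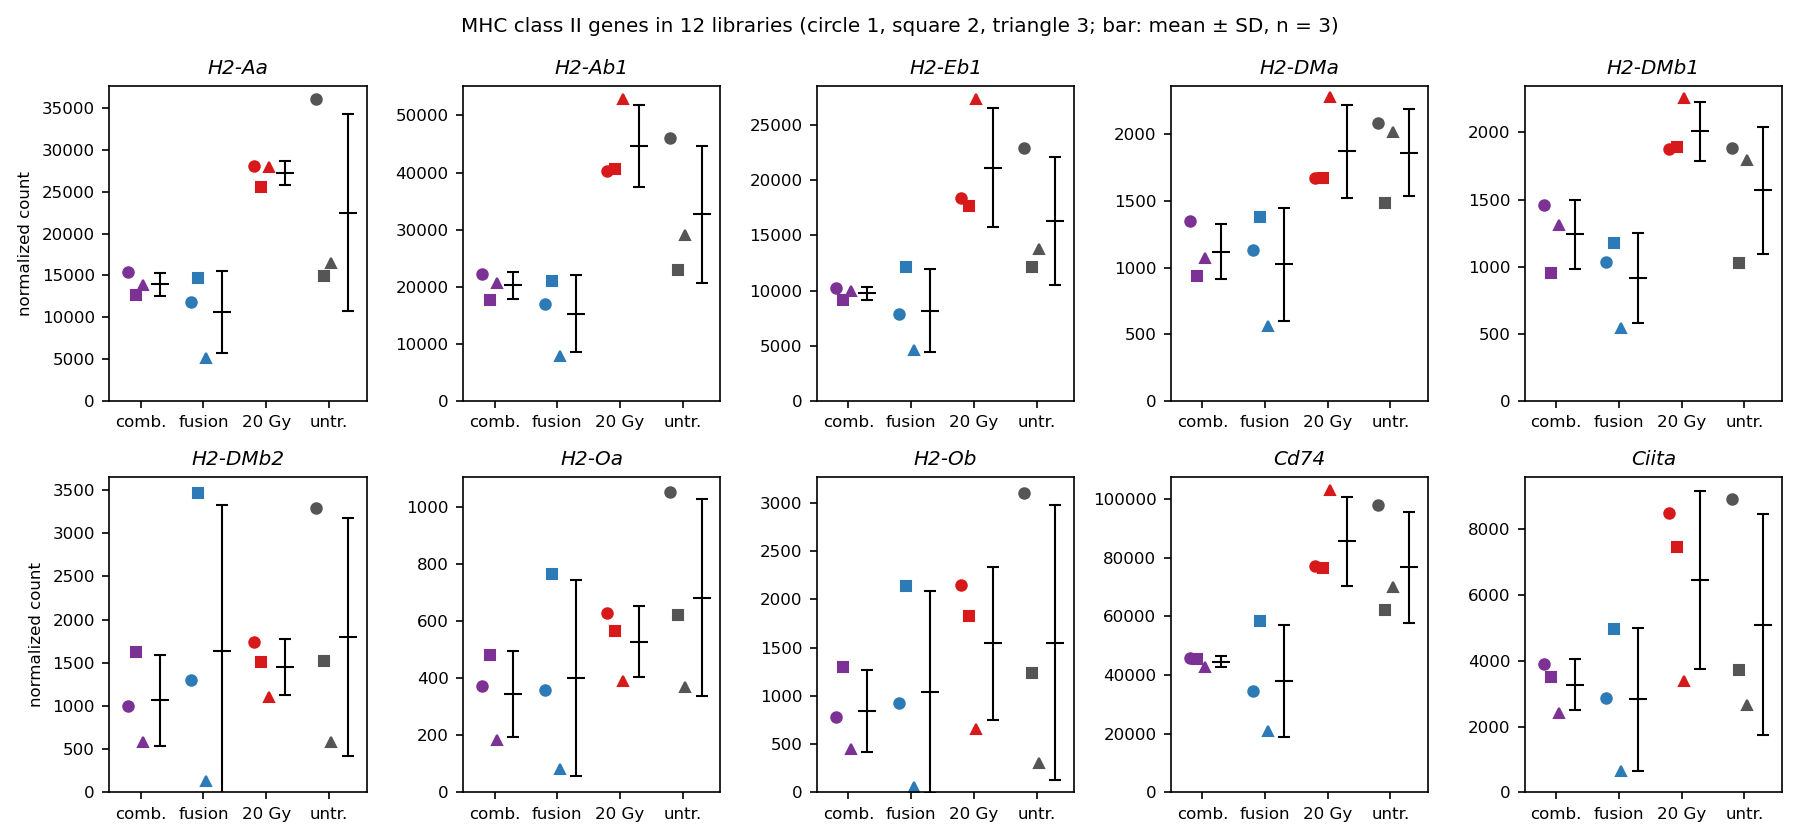
Normalized count of each class II gene in every library, by group from left to right: combined, fusion protein, 20 Gy and untreated. Circles, squares and triangles are libraries 1, 2 and 3, and bars are the mean ± SD (n = 3, cut at 0 where the SD exceeds the mean). For H2-Ab1, H2-Eb1, H2-DMa and Cd74 every library with the fusion protein lies below every library without it, and fusion protein library 3 is lowest in all 10 panels.

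The peptide-binding chains and the invariant chain carried the bulk of the class II reads. Values follow in library order 1, 2 and 3, as normalized counts. H2-Ab1 had 22258.5, 17701 and 20698 in combined libraries, 16942, 21083 and 7879.8 in fusion protein libraries, 40327, 40588 and 52901 in 20 Gy libraries and 45988, 22957 and 29036 in untreated libraries. The 6 libraries with the fusion protein lay at or below 22258.5 and the 6 without it at or above 22957, so the groups did not overlap, although the nearest values were close. The mean was 20219 ± 2316 in combined, 15301 ± 6753 in fusion protein, 44605 ± 7185 in 20 Gy and 32660.4 ± 11936 in untreated libraries (SD, n = 3 each).

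H2-Eb1 had 10195, 9119 and 9917 normalized counts in combined libraries, 7873, 12109 and 4588 in fusion protein libraries, 18402, 17625 and 27382 in 20 Gy libraries and 22901, 12154 and 13758 in untreated libraries. Its highest library with the fusion protein, 12109, stood beside its lowest without it, 12154, and the groups otherwise separated. Cd74, on chromosome 18 at 60803848 to 60812652 (plus strand), had 45748, 45477 and 42623 in combined libraries, 34613, 58381 and 20921 in fusion protein libraries, 77036, 76498 and 103157 in 20 Gy libraries and 97946, 62125 and 70119 in untreated libraries. The 3 combined libraries were nearly equal, and fusion protein library 2 came closest to the untreated range without entering it.

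H2-Aa, the I-A alpha chain that pairs with H2-Ab1, had 15367, 12616 and 13911 normalized counts in combined libraries, 11885, 14735 and 5189 in fusion protein libraries, 28061, 25563 and 28023 in 20 Gy libraries and 36111, 14971 and 16476 in untreated libraries. Combined library 1 lay above untreated library 2, so the 6 libraries with the fusion protein overlapped the 6 without it by a single pair. The difference was −1.03 ± 0.28 and did not pass (limma adjusted p = 0.076). The ratio of H2-Aa to H2-Ab1 per kilobase stayed between 0.358 and 0.531 in the 12 libraries, and that of Cd74 to H2-Ab1 between 2.88 and 4.24.

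The gene of the I-E alpha chain is a pseudogene with a defective promoter in mice of the H-2b haplotype, such as C57BL/6, and the beta chain then has no partner. H2-Ea-ps had 0 to 8.28 normalized counts over the 12 libraries and was not tested. The labels do not give the haplotype of these mice. The H2-Eb1 level is therefore that of a transcript, with nothing measured about I-E at the surface.

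Among the editor chains, H2-DMa and H2-DMb1 followed the display chains more closely over the 12 libraries than H2-DMb2 did. H2-DMa had 1346, 937 and 1074 normalized counts in combined libraries, 1134, 1381 and 558 in fusion protein libraries, 1673, 1669 and 2275 in 20 Gy libraries and 2082, 1487 and 2017 in untreated libraries. All 6 libraries with the fusion protein were below all 6 without it, and the difference of −0.84 ± 0.22 missed the threshold (limma adjusted p = 0.065). H2-DMb1 had 1459, 952 and 1308.5 in combined libraries, 1034, 1180.2 and 542 in fusion protein libraries, 1874, 1889 and 2260.2 in 20 Gy libraries and 1884, 1027 and 1794 in untreated libraries. Untreated library 2 lay inside the range with the fusion protein, and the difference was −0.75 ± 0.22 (limma adjusted p = 0.109).

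H2-DMb2 had 998, 1622.5 and 578 normalized counts in combined libraries, 1303, 3468 and 131 in fusion protein libraries, 1737, 1513 and 1106 in 20 Gy libraries and 3290.4, 1524 and 579 in untreated libraries. Both the highest and the lowest of the 12 libraries were fusion protein libraries, numbers 2 and 3, and the groups overlapped throughout (−0.65 ± 0.70, limma adjusted p = 0.773). Per kilobase, H2-DMb2 stood at 0.232 of H2-DMb1 in fusion protein library 3 and at 2.83 times it in fusion protein library 2. The balance between these beta chain transcripts therefore differed 12.2-fold between libraries of the same group.

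The inhibitor chain H2-Ob varied more over the libraries than any other member. H2-Oa had 374, 481 and 183 normalized counts in combined libraries, 357, 764 and 81.3 in fusion protein libraries, 629, 565 and 391 in 20 Gy libraries and 1053, 623 and 370.4 in untreated libraries. H2-Ob had 781, 1297 and 451 in combined libraries, 921, 2134 and 59.3 in fusion protein libraries, 2152, 1830.1 and 652 in 20 Gy libraries and 3105, 1234 and 307 in untreated libraries. Library 3 was lowest in every group for both genes, and the groups overlapped. The differences with the fusion protein were −0.92 ± 0.49 for H2-Oa and −0.97 ± 0.83 for H2-Ob (limma adjusted p = 0.443 and 0.703). Per kilobase, the sum of H2-Oa and H2-Ob was 0.142 of the sum of H2-DMa and H2-DMb1 in fusion protein library 3 and 0.852 of it in fusion protein library 2.

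Ciita had 3908, 3509 and 2397 normalized counts in combined libraries, 2873, 4952 and 639 in fusion protein libraries, 8478, 7461 and 3386 in 20 Gy libraries and 8909.8, 3731 and 2647 in untreated libraries. Its library 3 was again lowest in each group. The log2 estimate of −0.996 ± 0.48 with the fusion protein was as far below 0 as that of Cd74, with an SE close to that of H2-Oa, and did not pass (limma adjusted p = 0.379).

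Members thus formed a closely correlated display set and another around H2-O. Over the 12 libraries, on log2 values, Pearson's r was 0.947 to 0.987 among H2-Aa, H2-Ab1, H2-Eb1 and Cd74 and 0.938 to 0.973 among H2-DMb2, H2-Oa and H2-Ob. Between the editor's beta chains, H2-DMb1 and H2-DMb2, it was 0.506. Ciita had an r of 0.948 with H2-Ob and of 0.774 to 0.884 with the genes of the display set. With group means removed the sets were less distinct. H2-DMb2 then had an r of 0.744 to 0.833 with the genes of the display set, and H2-DMb1 of 0.79 to 0.914. These are descriptions: the libraries share groups and normalization, and fusion protein library 3 was lowest for all 10 members.

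**Figure D2:**
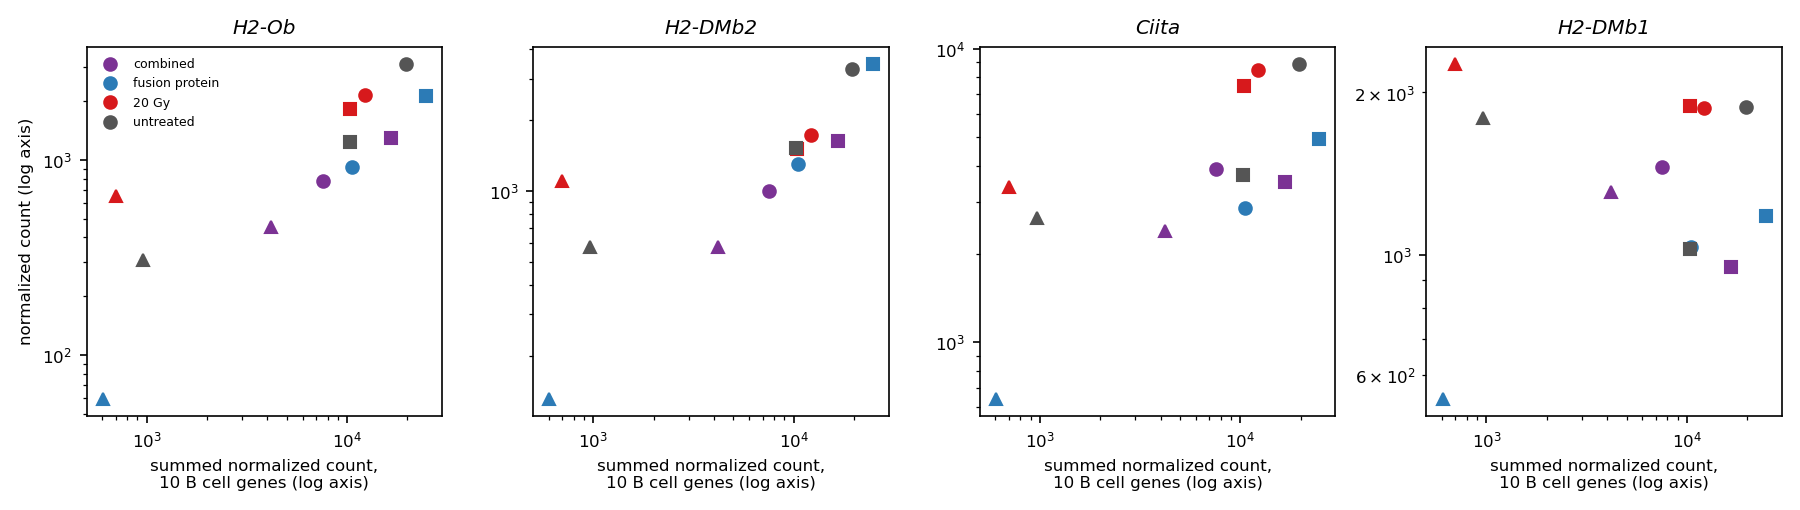
Normalized count of H2-Ob, H2-DMb2, Ciita and H2-DMb1 (vertical, log axis) against the summed normalized count of 10 B cell genes (horizontal, log axis) in 12 libraries. Circles, squares and triangles are libraries 1, 2 and 3. In the H2-Ob panel the libraries with B cell sums of 604 to 964 are among the 4 lowest, while in the H2-DMb1 panel 20 Gy library 3, with a sum of 700.2, is the highest.

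The B cell sum is given beside H2-DMb2, H2-Oa, H2-Ob and Ciita because the 4 genes and the sum were lowest in the library numbered 3 of every group. The sum was 7557, 16641 and 4189 normalized counts in combined libraries, 10544, 24787 and 604 in fusion protein libraries, 12233, 10398 and 700.2 in 20 Gy libraries and 19629, 10321 and 964 in untreated libraries. With the fusion protein 0 of the 10 B cell genes passed in either direction, 9 were higher and their median log2 fold change was 0.81. The part of B cell transcripts in these members' levels was not tested.

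The first pair of comparisons asked what the fusion protein did with and without radiation. With the fusion protein alone against untreated, all 10 members were below 0, as were 50.5% of all tested genes (median −1.09, against −0.01 over all). None passed by limma, edgeR or DESeq2, where limma called 0.744% of all genes (0.159% lower). At an unadjusted p below 0.05, 6 members were lower, as were 3.6% of all genes. The smallest p-values belonged to Cd74 (−1.11 ± 0.34, limma adjusted p = 0.271), H2-Ab1 (−1.15 ± 0.36, 0.286) and H2-DMa (−0.94 ± 0.31, 0.323). The ranges did not overlap for 5 members, H2-Aa, H2-Ab1, H2-Eb1, H2-DMa and Cd74, where 4.7% of all genes lay wholly lower. Fusion protein library 3 was the lowest of these 6 libraries for all 10 members. Without it, 8 members were below 0, and the estimates were −0.74 for Cd74, −0.73 for H2-Ab1 and −0.56 for H2-DMa.

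In combined against 20 Gy, again all 10 members were below 0, as were 51.6% of all tested genes (median −0.86, against −0.02 over all). None passed by limma, edgeR or DESeq2, and limma called 1.03% of all genes (0.186% lower). At an unadjusted p below 0.05, 6 members were lower, as were 4.59% of all genes. H2-Ab1 had −1.14 ± 0.36 (limma adjusted p = 0.25), H2-Eb1 −1.09 ± 0.34 (0.256) and Cd74 −0.93 ± 0.34 (0.379). In 6 members, those of the previous comparison and H2-DMb1, each combined library lay below each 20 Gy library, as in 9.55% of all genes. These 2 comparisons share no library. Leaving out any 1 library left the H2-Ab1 estimate between −1.21 and −1.01.

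The interaction, which asks whether the fusion protein's difference changed with 20 Gy, was called for 0 members by limma, with 0 at an unadjusted p below 0.05 and 0 by edgeR and DESeq2, and limma called 0.0% of all genes. Adjusted p was 0.9999 for each member. The 3 members of smallest p were H2-DMa (0.20 ± 0.44), H2-Oa (0.45 ± 0.98) and Cd74 (0.19 ± 0.48). The 95% interval for H2-Ab1, at an estimate of 0.01, ran from −1.09 to 1.12, so the data left room for an interaction of that size in either direction. Without fusion protein library 3 the estimates were −0.19 for H2-DMa, −0.44 for H2-Oa and −0.18 for Cd74. With all libraries 1 member was below 0 (median of the members 0.19), and without fusion protein library 3 all 10 were (median −0.41). Without untreated library 1, 8 members were below 0, as were 8 without the 4 libraries numbered 3.

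**Figure D3:**
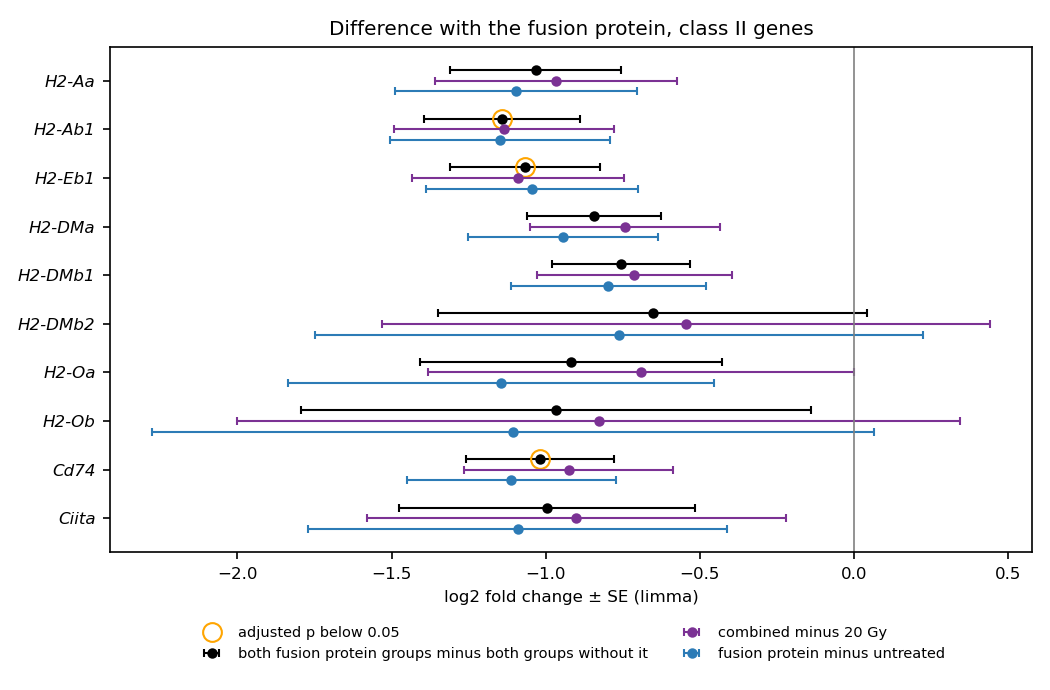
Log2 fold change ± SE (limma) of each class II gene with the fusion protein: both groups with it minus both without it (black), combined minus 20 Gy (purple) and fusion protein minus untreated (blue). Orange rings mark adjusted p below 0.05, which H2-Ab1, H2-Eb1 and Cd74 reached in the comparison of 6 against 6 libraries. Every point lies left of 0, with the widest bars for H2-DMb2 and H2-Ob.

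Over both pairs together, 3 of 10 members fell and 0 rose, where limma called 3.29% of all tested genes (1.23% lower). H2-Ab1, H2-Eb1, H2-DMa and Cd74 were lower in each of 6 libraries than in each of the other 6, as were 1.2% of all genes. The median of the 10 members was −0.98, against −0.02 over all genes, and 52.2% of all genes had estimates below 0. The calls sat near the threshold. EdgeR called 2 of the members and 3.22% of all genes, with Cd74 at an adjusted p of 0.0512, and DESeq2 called 6 of the members, adding H2-Aa, H2-DMa and H2-DMb1, and 7.33% of all genes. Leaving out 1 library ended all 3 calls in 9 of 12 fits, those without any 1 combined library, any 1 20 Gy library, fusion protein library 1, untreated library 1 or untreated library 3. Without fusion protein library 3, 9 of the 10 members were below 0. Without untreated library 2 there were 2 calls, without fusion protein library 3 there was 1, and without fusion protein library 2 there were 5. The estimates moved less than the calls: in these 12 fits H2-Ab1 lay between −1.29 and −0.93, H2-Eb1 between −1.23 and −0.88 and Cd74 between −1.20 and −0.83. Without the 4 libraries numbered 3, 0 members were called and the estimates were −0.90 for H2-Ab1, −0.84 for H2-Eb1 and −0.77 for Cd74 (limma adjusted p = 0.101, 0.119 and 0.144).

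The next comparisons asked what 20 Gy did. After 20 Gy against untreated, 8 members were above 0 by limma, and H2-Oa (−0.27) and H2-DMb2 (0.00 when rounded, just below 0) were not, while 4 were below 0 by edgeR. The median was 0.38 against 0.04 over all tested genes. None passed by limma, edgeR or DESeq2, 0 had an unadjusted p below 0.05, and limma called 0.0% of all genes. Blocked by replicate number, limma called 0 members and 0.383% of all genes. H2-Ab1 had 0.50 ± 0.36 (limma adjusted p = 0.786), H2-DMb1 0.40 ± 0.32 (0.805) and H2-Eb1 0.40 ± 0.34 (0.821). Untreated library 1 was above all 3 20 Gy libraries for H2-Aa, H2-DMb2, H2-Oa, H2-Ob and Ciita, and the other 2 untreated libraries were below all 3 for H2-Aa, H2-Ab1, H2-Eb1, H2-DMb1 and Cd74. Without untreated library 1 the median of the members was 0.64, and without untreated library 3 it was 0.10.

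In combined against fusion protein all 10 members were above 0 by limma, from 0.19 to 0.65, and 3 of them below 0 by edgeR and by DESeq2. The limma median was 0.42 against 0.03 over all tested genes. None passed by limma, edgeR or DESeq2, 0 had an unadjusted p below 0.05, and limma called 0.0% of all genes. H2-DMb1 had 0.49 ± 0.32, H2-Ab1 0.51 ± 0.36 and H2-Aa 0.52 ± 0.39, each with a limma adjusted p of 0.9997. Fusion protein library 3 was the lowest of the 6 libraries for every member. Without it, 7 members were below 0, and the estimates were 0.14 for H2-DMb1, 0.09 for H2-Ab1 and 0.07 for H2-Aa.

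Both groups with 20 Gy against both without it gave 9 members above 0 and H2-Oa at −0.04 by limma, and 3 members below 0 by edgeR and by DESeq2, with 0 called by limma, edgeR or DESeq2, 0 at an unadjusted p below 0.05, and 0.0% of all genes called by limma. H2-Ab1 had 0.51 ± 0.25 (limma adjusted p = 0.506), H2-DMb1 0.44 ± 0.22 (0.51) and H2-Aa 0.46 ± 0.28 (0.575). For no member did the 6 libraries with 20 Gy lie wholly above or below the 6 without it.

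Combined against untreated sets both treatments against neither, and shares its untreated libraries with the comparisons above. All 10 members were below 0, as were 48.7% of all tested genes (median −0.61, against 0.02 over all). None passed by limma, edgeR or DESeq2, and limma called 1.4% of all genes (0.192% lower). At an unadjusted p below 0.05, H2-DMa and Cd74 were lower, 2 members, as were 4.51% of all genes. H2-DMa had −0.73 ± 0.31 (limma adjusted p = 0.351), Cd74 −0.76 ± 0.34 (0.391) and H2-Eb1 −0.68 ± 0.34 (0.46). The ranges of H2-Ab1, H2-Eb1, H2-DMa and Cd74 did not overlap, as for 7.52% of all genes that lay wholly lower. Group means ran in the order 20 Gy, untreated, combined and fusion protein for H2-Aa, H2-Ab1, H2-Eb1, H2-DMa, H2-DMb1, Cd74 and Ciita, and neighbours in that order did not pass a test. Without untreated library 1, 7 members were below 0 in combined against untreated.

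Of 19 listed regulators of MHC genes, 2 rose and 0 fell in the groups with the fusion protein, where 2.07% of all genes rose and 1.23% fell. Of the 19, 6 had estimates below 0 and 13 above it, with a median of 0.16. Nlrc5, the transactivator of MHC class I genes and a relative of Ciita, rose (1.05 ± 0.14, limma adjusted p = 0.00168). It had 10148, 7029 and 9443 normalized counts in combined libraries, 10200.1, 8236 and 6834 in fusion protein libraries, 3529.6, 3590.5 and 4210.3 in 20 Gy libraries and 4043, 4348 and 5126 in untreated libraries, with no overlap. Of all tested genes, 1.86% likewise lay wholly higher with the fusion protein. Nlrc5 also rose in combined against 20 Gy (1.22 ± 0.20, 0.013) and against untreated (0.97 ± 0.20, 0.0389), and with the fusion protein alone the estimate was 0.89 ± 0.20 (0.0862, and 0.018 when blocked by replicate number). Per kilobase, Nlrc5 stood at 1.87 to 12 times Ciita in the 6 libraries with the fusion protein and at 0.467 to 2.17 times it in the 6 without it.

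**Figure D4:**
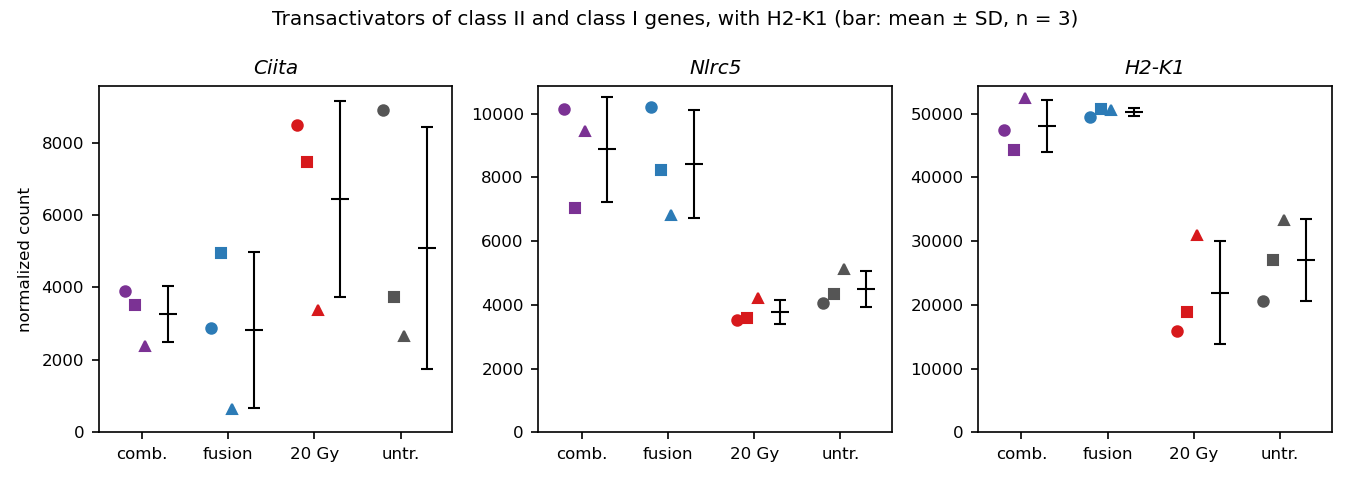
Normalized counts of Ciita, Nlrc5 and H2-K1 in each library of the combined, fusion protein, 20 Gy and untreated groups, left to right. Circles, squares and triangles are libraries 1, 2 and 3, and bars are the mean ± SD (n = 3). Nlrc5 and H2-K1 are higher in every library with the fusion protein than in any without it, as are 1.86% of all tested genes. Ciita overlaps between the groups.

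The factors bound to the X and Y boxes did not pass by limma in any comparison. Rfx5, a subunit of the X box factor, had an estimate of 0.18 ± 0.27 in both groups with the fusion protein against both without it (limma adjusted p = 0.85), and Nfyb, a subunit of the Y box factor NF-Y, had 0.50 ± 0.12 (0.0553, and 0.00299 by DESeq2). Irf1, an interferon-induced factor that acts on a Ciita promoter, had 0.76 ± 0.42 (0.466), and its level in each group was highest in library 3. These 3 are named after their values were seen.

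All 8 MHC class I genes listed had estimates above 0 in the groups with the fusion protein, with a median of 0.71, and 2 rose, where 2.07% of all genes did: the heavy chain H2-K1 (1.05 ± 0.19, limma adjusted p = 0.00966) and the immunoproteasome subunit Psmb9 (0.73 ± 0.15, 0.0241). H2-K1 had 47509, 44299 and 52412 normalized counts in combined libraries, 49545, 50669 and 50498 in fusion protein libraries, 15855, 18913 and 31044 in 20 Gy libraries and 20652, 27120.4 and 33392 in untreated libraries. The 8-gene sum was 145576 to 181750.1 with the fusion protein and 62037 to 128280.2 without it, while the 10-gene class II sum was 40589 to 120187 with it and 121833 to 223270 without it. Neither sum overlapped between the groups, although the class II sums nearly met. Most of the class II sum came from Cd74, H2-Ab1, H2-Aa and H2-Eb1. Taken singly, only 4 of the 10 members, H2-Ab1, H2-Eb1, H2-DMa and Cd74, did not overlap.

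Of 8 lysosomal genes that cut antigen and invariant chain, 0 passed with the fusion protein by limma, edgeR or DESeq2, 1 had an unadjusted p below 0.05, and the median was 0.26. Cathepsin S, encoded by Ctss, makes the last cut of the invariant chain in dendritic cells and B cells. It had 21747, 15786 and 27718 normalized counts in combined libraries, 15286, 10029.9 and 10072 in fusion protein libraries, 13034, 12908 and 20225.5 in 20 Gy libraries and 11332, 7581 and 12151 in untreated libraries. Its estimate with the fusion protein was 0.34 ± 0.20 (limma adjusted p = 0.516), opposite in sign to that of Cd74. Ctss is named after its values were seen.

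The last list, of genes for class II turnover and for its partners at the surface, had 8 tested members of 9, and 0 passed by limma, edgeR or DESeq2, with 0 at an unadjusted p below 0.05 and a median of 0.25. March1, the ubiquitin ligase that removes class II from the surface, had 2754, 2026 and 2263 normalized counts in combined libraries, 1958, 1639 and 590.0 in fusion protein libraries, 3691, 2969 and 789 in 20 Gy libraries and 3032, 919.9 and 505 in untreated libraries. Its groups overlapped (0.16 ± 0.50, limma adjusted p = 0.949), and March1 is named after its values were seen. In the separate comparisons 0 class I, lysosomal or turnover genes passed by limma. Blocked by replicate number, 3 class I genes and 1 lysosomal gene passed with the fusion protein alone, where 3.29% of all genes did, and 5 class I and 4 lysosomal genes in combined against untreated, where 7.73% did.

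Some markers of conventional dendritic cells also fell with the fusion protein, where 1.23% of all genes fell and 52.2% had estimates below 0. Of the general markers, 5 of 5 were lower and 2 fell, Flt3 (−1.86 ± 0.31, limma adjusted p = 0.00741) and Zbtb46 (−0.97 ± 0.22, 0.038). Of the 5 markers of cDC1, the subset that takes up dead cells and cross-presents to CD8 T cells, 4 were lower and 2 fell, Cadm1 (−1.92 ± 0.24, 0.00094) and the chemokine receptor Xcr1 (−2.36 ± 0.37, 0.00515). Of the 6 markers of cDC2, the subset best known for presenting on class II to CD4 T cells, 6 were lower and 2 fell, Cd209a (−4.78 ± 0.29, 9.96e-06) and the lectin Mgl2 (−3.75 ± 0.69, 0.0123). Cd209a, a C-type lectin, had 44.9, 23.6 and 37.1 normalized counts in combined libraries, 58.2, 44.6 and 16.5 in fusion protein libraries, 1203, 1099 and 1040.5 in 20 Gy libraries and 1035, 711 and 862 in untreated libraries.

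Summed levels put these markers beside the members. The cDC2 sum was 2908 to 5054 normalized counts with the fusion protein and 5338 to 8986 without it, and did not overlap. The cDC1 sum was 2645 to 13138 with it and 9712 to 24800.2 without it, and the general conventional dendritic cell sum was 3358 to 12209.8 with it and 8244 to 18049 without it. These sums weigh abundant genes most. In the cDC1 list the median over the 12 libraries was 8163 for Wdfy4, against 367 for Xcr1 and 247 for Cadm1. In the general list it was 5059 for Itgax, against 1691 for Flt3. In the cDC2 list it was 3182 for Sirpa, against 385 for Cd209a. Of 5 markers of mature dendritic cells, 5 were lower and 0 passed by limma, edgeR or DESeq2 (1 at an unadjusted p below 0.05, median −0.31), and their sum was 1771 to 7205 with the fusion protein and 1992 to 20360.3 without it. Of 6 plasmacytoid dendritic cell markers, 5 were lower, 1 rose and 0 fell, and their sum was 5764 to 11203 with it and 6544 to 17504 without it. Of 7 macrophage markers, 6 were lower and 1 fell, and their sum was 2198 to 7824 with it and 2908 to 10643 without it. These 3 sums overlapped between the groups, as did the cDC1 sum and the general sum. The sum of 5 monocyte markers was 11448 to 30654 with it and 5700.2 to 11211 without it, with 5 of 5 higher and 2 risen. The sum of 5 NK cell markers was 16546 to 31228 with it and 7136 to 15551 without it, with 5 of 5 higher and 1 risen. Of all tested genes, 2.07% rose, 1.23% fell and 52.2% had estimates below 0. No marker of these lists was at 0 in all 3 libraries of a group. The part of these cell types in the fall of H2-Ab1, H2-Eb1 and Cd74 was not tested.

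The genes whose pattern was most like the mean of H2-Aa, H2-Ab1, H2-Eb1 and Cd74, by Pearson's r on log2 values over 12 libraries among 13409 genes, were Arhgap22 (r = 0.963), Fam149a (0.953), Cd24a (0.95), Xcr1 (0.947), Adam23 (0.943), Lpcat1 (0.942), Sipa1l3 (0.941), P2rx5 (0.94), Anpep (0.937) and Myo5a (0.937). Class II members, non-coding, predicted and Rik-named genes, and immunoglobulin and T cell receptor genes were left out of the ranking. The same holds for the rankings by H2-Ob and Ciita below. Arhgap22, the closest, had 199.6, 156 and 205 normalized counts in combined libraries and 132, 244 and 70.3 in fusion protein libraries. After 20 Gy it had 426, 371 and 501, and in untreated libraries 367, 203 and 186. Its highest untreated library was number 1 and its lowest of all was fusion protein library 3, as for the display chains.

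The 5 genes most like H2-Ob were Btla (r = 0.981), Pcmtd2 (0.975), Rab30 (0.975), Rasgrp3 (0.972) and Slco5a1 (0.97), and the 5 most like Ciita were Btla (0.976), Mtmr4 (0.968), Ccser1 (0.957), Epb41l3 (0.957) and Rab30 (0.953). Btla, an inhibitory receptor of lymphocytes and dendritic cells, headed both lists. It had 1267, 1178 and 698 normalized counts in combined libraries, 1079, 1739 and 192 in fusion protein libraries, 2507, 1988 and 845 in 20 Gy libraries and 2494, 1105 and 553 in untreated libraries. Like H2-Ob and Ciita it was lowest in the library numbered 3 of every group.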

How the data were processed

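RNA of sorted CD45+ CD11c+ cells was sequenced as 12 libraries made with a SMARTer stranded total RNA kit for small input, per the labels' protocols. FastQC, Trimmomatic, STAR, featureCounts and DESeq2 and the build mm10 are named in the submitters' processing notes, without versions or settings. The deposited signal values are counts normalized by the authors with DESeq2 size factors. With the factors recovered from the values, 100% of values came to whole reads (tolerance 0.001). Symbols from GENCODE vM21 matched 55141 identifiers (99.53%).

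Genes that reached 10 normalized counts in 3 or more libraries entered limma 3.58.1 on log2 of the normalized count plus 1, with a variance trend and all 12 libraries in 4 groups (8 residual and 3.313 prior degrees of freedom). Fold changes are on this scale, which understates those of low genes. Tests were two-sided with Benjamini-Hochberg adjustment over 18274 genes and a threshold of 0.05. The steps were tested on simulated data. Of 81 genes given a log2 change of 1, 4 were recovered in fusion protein against untreated and 10 in 20 Gy against untreated. Of 64 genes given a change of 3, 53 were recovered in each. A change near 1 was thus seldom called in these comparisons, and no other comparison was simulated. Of the genes given no change, 4 of 17228 were called in fusion protein against untreated and 10 of 17230 in 20 Gy against untreated. EdgeR 4.0.16 and DESeq2 1.42.0 were run on the recovered reads as alternatives. Others were pseudocounts of 0.5 and 4, no filter, a filter of 50, TMM factors, the replicate number as a block (6 residual degrees of freedom), only the groups compared, leaving out each library and leaving out the 4 libraries numbered 3.

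The labels do not say what the replicate number stands for. Residuals of same-numbered libraries had correlations of 0.473 to 0.621 in fusion protein against untreated, 0.156 to 0.496 in 20 Gy against untreated, 0.334 to 0.389 in combined against untreated and 0.41 to 0.484 in combined against fusion protein. These 4 comparisons were taken as paired, although 20 Gy library 2 had a correlation of 0.351 with an untreated library of another number. In combined against 20 Gy the correlations were 0.01 to 0.505, and that comparison was not taken as paired. Fold changes, SEs and p-values above are from the fit without the block, except where blocking is named. With the block, the smallest limma adjusted p of a member in fusion protein against untreated was 0.0831, for H2-Ab1.

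All 10 members are named in every library. Fold changes are given for members past the threshold and for the 3 of smallest p in each comparison, and in the comparison of both fusion protein groups for all 10. Of the related lists up to 4 members past the threshold are named, and some are not reported here. The members and lists were chosen with earlier results of these data known.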

Additional observations from a re-analysis of the deposited data

How the results depend on the processing

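Counts of class II members called in both groups with the fusion protein against both without it depended on the processing. The count was 3 with pseudocounts of 0.5 and 4, with no filter, with a filter of 50 and with TMM factors, 2 by edgeR and 6 by DESeq2. Leaving out 1 library at a time gave 0 to 5, and leaving out the 4 libraries numbered 3 gave 0; the cause was not tested. With the replicate number as a block the count was 7 (all but H2-DMb2, H2-Oa and H2-Ob, out of 10.9% of all genes called), but the numbers did not pair the libraries in combined against 20 Gy, so this is no more than a hint. In the 4 paired comparisons the block changed no call of a member. The other 7 comparisons had 0 members called under every alternative run. H2-Ab1, H2-Eb1 and Cd74 were lower with the fusion protein in both groups against both others under every alternative run. Directions of members that were not called did change. Without fusion protein library 3, 9 members were below 0 in that comparison, 8 with the fusion protein alone and 7 in combined against fusion protein (0 with all libraries). In combined against untreated 7 were below 0 without untreated library 1. In both groups with 20 Gy against both without it, 0 to 5 were. In the interaction 1 was with all libraries, and all 10 were without fusion protein library 3. All 10 stayed below 0 in combined against 20 Gy under every alternative run. In the interaction, the estimate of H2-DMa was −0.0815 without the 4 libraries numbered 3, and leaving out 1 library gave ranges of −0.19 to 0.47 for H2-DMa, −0.44 to 1.17 for H2-Oa and −0.18 to 0.56 for Cd74. With no filter, 48426 genes were tested and the median of all genes shifted to 0.41 in 20 Gy against untreated, −0.27 in combined against 20 Gy and −0.14 in both fusion protein groups against both others, while the members' estimates did not change. With 3 libraries a group, SEs of 0.31 to 1.17 on the log2 scale in single comparisons limit what could be called, most of all for H2-DMb2, H2-Oa, H2-Ob and Ciita.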
